A study of Drosophila melanogaster with 2 samples.

Results

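Of the strongest chromatin sites of tagged hng2 in replicate 3 of a ChIP-seq experiment on Drosophila embryos, 277 had no counterpart in replicate 2 and 2893 had one. These 277 sites were chosen by 2 measured values. The signal of a site in replicate 3 had to rank among the highest of the 30000 listed, in as many rows as the authors' optimal list holds (277 and 2893 together), and no summit of the full replicate 2 list could lie within 500 bp of its own summit. The remaining 2893 rows are called the other strong sites, and both sets together the strongest rows. Signal, rank, q-value and presence in the replicate 2, pooled or optimal lists were used by that choice or come from the same contrast, so they are given as descriptions and were not tested. Position in the genome and DNA sequence were not used, and those were tested.

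The embryos came from a transgenic line that stably expresses CG8359, the gene named hng2, with GFP fused to its C-terminal end. Embryos of both sexes aged 0 to 14 h were taken as whole organisms, so every list mixes all cell types and a wide range of stages. Chromatin was fragmented by sonication to between 200 and 800 bp. Precipitation used an antibody against GFP per the sample description, while the antibody entry names CG8359. There are 2 biological replicates, numbered 3 and 2, in 1 group, and a control group is not among the samples.

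hng2 (hinge2) belongs to the MADF and BESS domain proteins, a family expanded in Drosophila whose MADF domain resembles Myb domains and binds DNA, while the BESS domain mediates contacts between proteins. With hng1 and hng3 it is known for a shared role in growth and patterning of the wing hinge. In ChIP-seq, a summit is the base of a peak where enrichment over the control is highest. Promoters of active fly genes are often open chromatin, and many carry GAGAG elements, which the GAGA factor encoded by Trithorax-like binds.

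Among the strongest promoter sites of replicate 3 only, those at CG43759 and at Inx3, which encodes an innexin of gap junctions, are shown here. They are shown with chic, the gene for profilin, whose promoter site holds GAGA factor repeats. The chic site was added after its sequence was seen. Each line is the plus strand of Release 6 (dm6) from the RefSeq assembly, 200 bp centred on the summit, in lower case. Capitals mark every match to the GAGA factor repeat GAGAGAG or the CA repeat CACACACA on either strand.
CG43759 promoter, chrX:18930204-18930403: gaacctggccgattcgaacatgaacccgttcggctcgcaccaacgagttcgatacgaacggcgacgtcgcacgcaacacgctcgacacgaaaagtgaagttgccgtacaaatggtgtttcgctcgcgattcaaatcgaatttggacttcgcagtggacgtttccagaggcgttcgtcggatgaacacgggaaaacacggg
Inx3 promoter, chr3R:28859161-28859360: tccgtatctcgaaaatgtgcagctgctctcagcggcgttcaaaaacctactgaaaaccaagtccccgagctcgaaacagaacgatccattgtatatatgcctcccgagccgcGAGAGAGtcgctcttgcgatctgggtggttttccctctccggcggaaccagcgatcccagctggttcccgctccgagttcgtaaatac
chic promoter, chr2L:5979997-5980196: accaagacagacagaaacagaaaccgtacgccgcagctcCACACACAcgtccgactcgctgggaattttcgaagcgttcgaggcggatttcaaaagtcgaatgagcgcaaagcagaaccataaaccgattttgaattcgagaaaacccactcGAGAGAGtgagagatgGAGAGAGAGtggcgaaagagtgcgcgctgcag

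The CG43759 window held no match to either repeat. The Inx3 window held 1 GAGA factor repeat, and the chic window held 3 together with 1 CA repeat. The windows below are the 3 strongest intron sites, 2 intergenic sites, and an intron site with a GAGA factor repeat, named for Sema1a, which was also added after its sequence was seen. Intron sites are named here by the nearest protein-coding TSS, which need not belong to the gene whose intron holds them. The ctrip site lay 570 bp upstream of that TSS, and the Glut4EF site also lay in CG46467. Glut4EF encodes a DNA-binding factor, ctrip a ubiquitin ligase, Atpalpha the catalytic subunit of the sodium pump, Sema1a an axon guidance semaphorin and Sodh1 a sorbitol dehydrogenase.
Glut4EF intron, chr3R:9881621-9881820: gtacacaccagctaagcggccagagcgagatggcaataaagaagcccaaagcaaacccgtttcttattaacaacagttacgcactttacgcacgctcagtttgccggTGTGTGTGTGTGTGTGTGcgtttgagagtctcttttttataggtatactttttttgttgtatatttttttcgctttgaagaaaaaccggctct
ctrip intron, chr3R:4803312-4803511: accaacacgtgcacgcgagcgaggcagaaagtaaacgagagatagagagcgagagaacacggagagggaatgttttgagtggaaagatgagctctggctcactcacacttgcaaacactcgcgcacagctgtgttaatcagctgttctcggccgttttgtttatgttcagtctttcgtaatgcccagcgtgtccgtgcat
Atpalpha intron, chr3R:20950338-20950537: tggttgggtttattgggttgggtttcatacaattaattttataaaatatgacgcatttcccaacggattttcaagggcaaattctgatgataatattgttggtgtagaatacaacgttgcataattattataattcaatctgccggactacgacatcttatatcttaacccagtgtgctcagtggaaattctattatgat
Sema1a intron, chr2L:8544009-8544208: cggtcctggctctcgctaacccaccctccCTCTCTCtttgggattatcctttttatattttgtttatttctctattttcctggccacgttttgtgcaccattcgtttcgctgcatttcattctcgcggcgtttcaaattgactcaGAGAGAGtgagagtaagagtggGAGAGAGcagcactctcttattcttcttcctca
Sodh1 nearest gene, intergenic, chr3R:7037252-7037451: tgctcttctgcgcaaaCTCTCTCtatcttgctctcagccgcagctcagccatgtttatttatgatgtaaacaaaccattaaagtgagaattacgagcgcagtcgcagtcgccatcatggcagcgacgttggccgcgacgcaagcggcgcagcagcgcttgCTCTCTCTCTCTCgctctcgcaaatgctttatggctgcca
CG14662 nearest gene, intergenic, chr3R:4977171-4977370: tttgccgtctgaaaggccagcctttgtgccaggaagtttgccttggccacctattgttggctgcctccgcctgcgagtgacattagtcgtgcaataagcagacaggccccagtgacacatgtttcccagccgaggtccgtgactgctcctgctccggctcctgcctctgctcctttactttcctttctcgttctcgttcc

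The Glut4EF window carried the longest marked CA run of these lines, on the minus strand as TG. The Sodh1 window held GAGA factor repeats in 2 separate places, as CT on the plus strand. The ctrip, Atpalpha and CG14662 windows held no match to either repeat.

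No site without a replicate 2 counterpart stood among the 317 strongest of replicate 3, and their share was highest in the last 3 bands of rank. The strongest ranked 541 with a signal of 131, in units of the authors' peak caller. Of the next band of 317 rows, 3 were replicate-3-only sites, and of the last band, which starts at rank 2854, 56 were. Signals of the 277 sites spanned 58.5 to 131 (median 65.6), against 58.5 to 13798 (median 81.3) in the other strong sites. The share of replicate-3-only sites was 8.74% over the strongest rows and 43% over all 30000 rows of the relaxed list (12895 rows). The caller's highest −log10 q-value, and so its lowest q-value, was held by 93 of 277 replicate-3-only sites (33.6%). It was held by 1890 of 2893 other strong sites (65.3%).

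**Figure D1:**
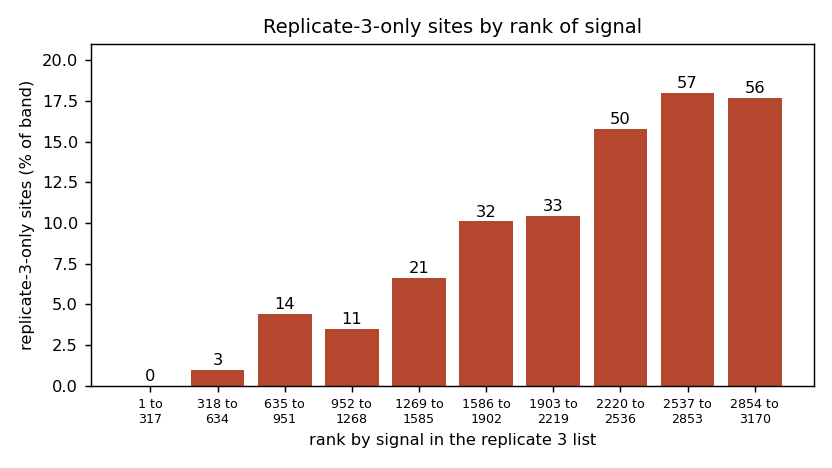
Share of replicate-3-only sites (vertical axis, percent of each band) in 10 bands of 317 rows of the replicate 3 list ordered by signal (horizontal axis, rank 1 is the strongest), with the number of such sites above each bar. The first band holds 0 and the last 3 bands hold 50, 57 and 56.

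The nearest replicate 2 summit lay between 501 and 34905 bp away, with a median of 1157 bp, against a median of 33 bp for the other strong sites. For 162 of the 277 sites (58.5%) no replicate 2 summit lay within 1000 bp, and for 77 (27.8%) none lay within 2000 bp. None of the 277 peak intervals touched a replicate 2 interval, against 2860 of 2893 intervals of the other strong sites that did. Of the 277 intervals, 276 were 420 bp wide, so the 500 bp limit of the choice largely fixed this outcome. It is therefore no further evidence of separation. Both lists hold 30000 rows, so a site missing from replicate 2 may still carry signal below the last row listed there. A site that has no replicate 2 summit is not shown to be unbound in replicate 2.

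**Figure D2:**
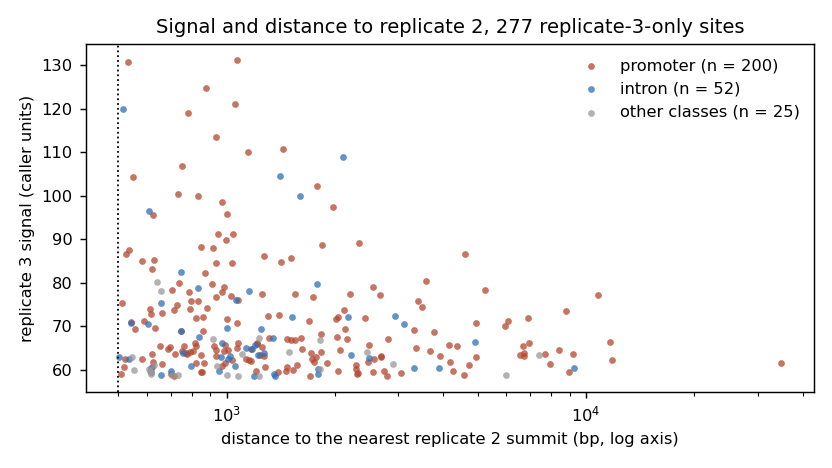
Replicate 3 signal (vertical axis, caller units) against the distance to the nearest replicate 2 summit (horizontal axis, bp, log scale) for the 277 replicate-3-only sites, coloured by class; the dotted line marks the 500 bp limit of the choice. The site with the highest signal, 131, lies 1068 bp from replicate 2 and the farthest site, at 34905 bp, has a signal of 61.5.

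The farthest site was the promoter of Tdg, a thymine DNA glycosylase gene on arm 4, with a signal of 61.5. The next lay at the promoters of PDZ-GEF, a Rap guanine exchange factor gene, at 11833 bp, of CG10286 at 11633 bp and of bsk, the gene for the Jun kinase of flies, at 10805 bp. At the limit of 500 bp, the nearest sites inside it were in an intron of Mnt at 501 bp and at the promoters of CG14073 at 509 bp and nrv2 at 512 bp. The nearest outside it, which count as other strong sites, were at the promoter of shn at 500 bp, in an intron of mam at 498 bp and at a promoter beside CG16898 at 496 bp. At the rank limit, the last sites inside were CG31710, RabGGTa and zfh2 with signals of 58.54, 58.52 and 58.48. The first sites without a replicate 2 counterpart outside it were lqf, SLC22A and dlp with 58.43, 58.42 and 58.36. On either side of both limits the sites differed little in the values that chose them.

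In the list of both replicates pooled, 236 of the 277 sites (85.2%) had a summit within 100 bp, against 2669 of 2893 other strong sites (92.3%). Their median rank in the pooled list was 8230, against 1601 for the other strong sites. The pooled libraries include replicate 3 itself, so its summits there are not a second observation. In the authors' optimal list, which holds 10.6% of the pooled rows, 10 of 277 sites (3.61%) had a summit within 100 bp, against 1982 of 2893 (68.5%). Among those 10 were the promoters of 14-3-3zeta, CG43759, wdb, chic, Cln7, crp, CG2162 and PolD2 and the intron site near ctrip. PolD2, which encodes a subunit of DNA polymerase delta, had the best pooled rank of the 277, at 1150, although it ranked 1580 in replicate 3.

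Sites of replicate 3 only were mostly at promoters, defined as a summit within 500 bp of an annotated transcription start site (TSS). There were 200 of 277 there (72.2%, 95% exact interval 66.5 to 77.4%), against 1294 of 2893 other strong sites (44.7%, 42.9 to 46.6%). The log2 odds ratio was 1.68 (95% Wald interval 1.29 to 2.08), with p = 9.17e-18 by a 2-sided Fisher's exact test adjusted by Benjamini-Hochberg over 7 classes. Bases within 500 bp of a TSS make up 13.3% of the main arms, and 29.7% of all 30000 relaxed replicate 3 summits lay there. Sites of 1 library are not replicates, so the test compares 2 sets of sites and not 2 conditions.

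Introns held 52 of the 277 sites (18.8%), against 1111 of the other strong sites (38.4%), with a log2 odds ratio of -1.43 (-1.88 to -0.98) and an adjusted p = 5.77e-11 by Fisher's exact test. Intergenic DNA held 8 sites (2.89%), against 366 (12.7%), with a log2 odds ratio of -2.28 (-3.31 to -1.26) and an adjusted p = 1.14e-07 (Fisher's exact test). Coding exons held 7 sites (2.53%), against 34 (1.18%), and this difference did not pass the threshold (adjusted p = 0.148, Fisher's exact test). The 5' UTR class held 4 sites, the 3' UTR class 3 and other exons 3, against 29, 24 and 35 of the other strong sites, and none of these passed. The summit of 0 of 277 sites lay in an annotated transposable element, which allows a share of up to 1.08%, against 2 of 2893 other strong sites.

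**Figure D3:**
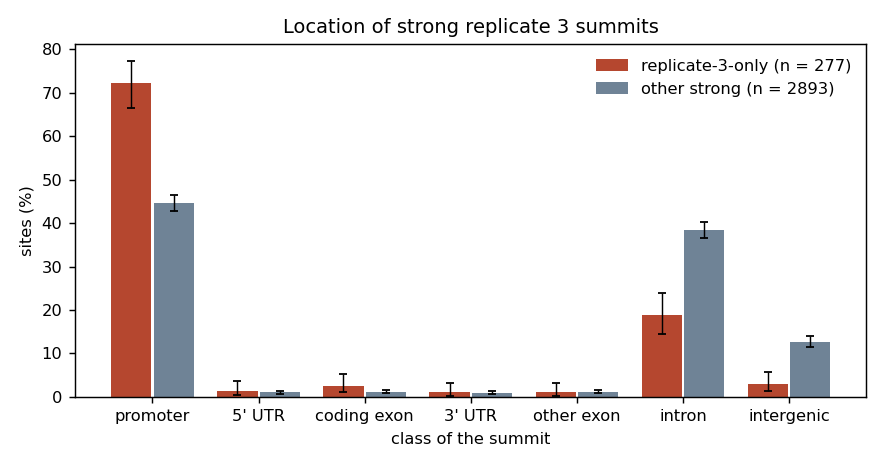
Share of summits in each class (vertical axis, percent) for the 277 replicate-3-only sites (left bar of each pair) and the 2893 other strong sites (right bar); whiskers are 95% exact binomial intervals, which cover counting over sites only. Promoter summits make up 72.2% and 44.7%, intron summits 18.8% and 38.4%, and intergenic summits 2.89% and 12.7%.

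The other strong sites have higher signals, so the comparison was also made among strong sites ranked after 1585 only. There 159 of 228 replicate-3-only sites (69.7%) were at promoters, against 585 of 1357 other strong sites (43.1%). The log2 odds ratio was 1.60 (unadjusted p = 7.03e-14, Fisher's exact test). The difference did depend on how the rule is read. When an equally long list of the strongest of all rows without a replicate 2 summit was taken, which reaches down to rank 11996 and a signal of 33.7, 42.5% were at promoters, against 44.6% of as many of the strongest rows with one. The log2 odds ratio then had the opposite sign, at -0.12 (unadjusted p = 0.0946, Fisher's exact test). The higher promoter share was thus measured in the 277 sites of high signal and not in the longer list.

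Counted over all sites of each set, larger shares of the 277 sites than of the other strong sites lay close to a TSS. Of the 277 sites, 53 (19.1%) lay in the 100 bp before the nearest TSS, against 267 of the other strong sites (9.23%), and 52 (18.8%) lay in the 100 bp that begin at the TSS, against 277 (9.57%). Between 100 and 199 bp downstream there were 34 (12.3%), against 132 (4.56%). Between 201 and 300 bp upstream there were 6 (2.17%), against 151 (5.22%). The median distance to a TSS was 156 bp, against 749 bp. These shares and distances carry the higher promoter share of the 277 sites with them. Whether summits sat closer to the TSS within promoters alone was not tested.

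**Figure D4:**
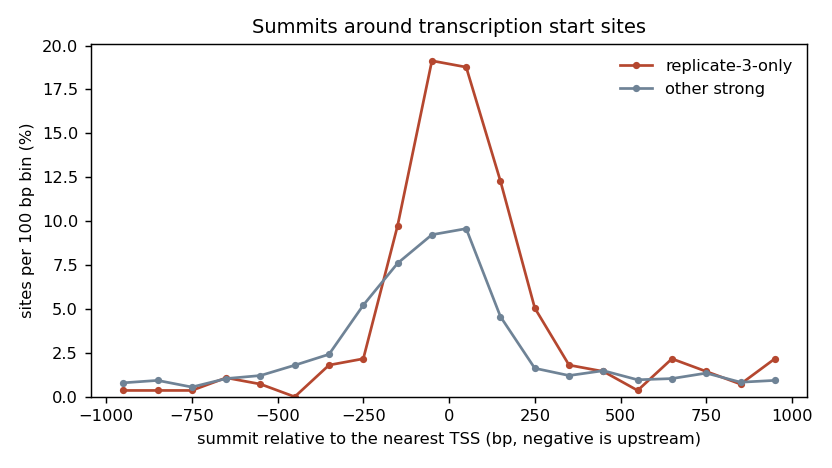
Share of summits (vertical axis, percent of each set) in bins of 100 bp around the nearest TSS (horizontal axis, bp, negative is upstream) for the 277 replicate-3-only sites and the 2893 other strong sites. In the bins on either side of the TSS the replicate-3-only sites reach 19.1% and 18.8%, and the other strong sites 9.23% and 9.57%.

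The sites lay on every main arm except Y. Arm 3R held 75 and arm 2R held 74. The 2R share was 26.7%, against 18.4% of the other strong sites (533), with a log2 odds ratio of 0.69 (0.28 to 1.10) and p = 0.00796 by Fisher's exact test adjusted over 6 arms; 2R makes up 18.4% of main-arm bases. This difference did not pass when the distance to replicate 2 was set to 100, 1000 or 2000 bp (Fisher's exact test, adjusted p = 0.125, 0.0612 and 0.115), and over the alternatives its adjusted p ranged up to 1. No other arm passed. On arm 4 there were 4 sites, all at promoters, against 9 other strong sites, and on 3L there were 45 (16.2%), against 628 (21.7%), with adjusted p = 0.0649 and 0.0751 by Fisher's exact test. Another of the 277 sites lay within 5000 bp for 24 of them (8.66%), in a set that is small for the genome. Counting all strongest rows, another summit lay within 5000 bp for 134 of 277 (48.4%), against 1560 of 2893 other strong sites (53.9%). These spacings were not tested.

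Windows of replicate-3-only sites were richer in G and C. The median GC content of the 200 bp windows was 46.5%, against 40.5% in the other strong sites and 43.5% over all relaxed sites of replicate 3. In promoters alone the medians were 47.0% and 42.0%, and in introns 44.75% and 39.5%, so the gap was present within both classes. The median share of soft-masked bases, those in lower case in the reference assembly, was 14%, against 16.5%. These values were not tested.

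Of 28 motifs searched on both strands in the 200 bp windows, 2 differed between the sets. The GAGA factor repeat (GAGAGAG) was in 60 of 277 windows (21.7%, 17.0 to 27.0%), against 228 of 2893 (7.88%, 6.92 to 8.92%). Its log2 odds ratio was 1.69 (1.24 to 2.15), with p = 4.79e-10 by Fisher's exact test adjusted over the 28 motifs. It occurred in 4.60% of all relaxed replicate 3 windows and in 4.45% of windows centred on all annotated TSSs. The CA repeat (CACACACA) was in 36 windows (13%), against 202 (6.98%), with a log2 odds ratio of 0.99 (0.45 to 1.54) and an adjusted p = 0.0103 by Fisher's exact test. It was in 5.70% of all relaxed windows and 4.04% of TSS windows. Both repeats stood together in 6 of the 277 windows, and 187 windows had neither. A match is only a run of letters, and whether GAGA factor sat on it was not measured.

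The GAGA factor repeat was more frequent in both main classes of site. It was in 40 of 200 promoter windows (20.0%), against 132 of 1294 (10.2%), with a log2 odds ratio of 1.14 (0.57 to 1.70; adjusted p = 0.00512, Fisher's exact test). In introns it was in 16 of 52 windows (30.8%, 18.7 to 45.1%), against 68 of 1111 (6.12%). Over all non-promoter sites together the counts were 20 of 77 (26.0%) and 96 of 1599 (6.0%), with a log2 odds ratio of 2.46 (1.66 to 3.25; adjusted p = 1.95e-06, Fisher's exact test). The CA repeat passed among non-promoter sites, with 14 of 77 (18.2%) against 100 of 1599 (6.25%; adjusted p = 0.00625, Fisher's exact test). Among promoters it was in 22 of 200 (11.0%) against 102 of 1294 (7.88%) and did not pass (adjusted p = 0.448, Fisher's exact tests). Over the alternatives, the adjusted p ranged from 4.21e-15 to 0.580 for the GAGA factor repeat and from 4.54e-07 to 0.819 for the CA repeat.

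As with promoters, the GAGA factor repeat was not more frequent under the longer reading of the rule. It was in 7.41% of that longer list without a replicate 2 summit, against 7.85% of the rows with one. The sign of its log2 odds ratio was then reversed, at -0.090. Windows with the repeat had a median GC content of 49.0% in replicate-3-only sites, against 47.0% in other strong sites; windows without it had 46.0% and 40.5%. The repeat lay a median of 41.5 bp from the summit, against 49 bp, and a run of alternating G and A (or C and T) of at least 10 bp was in 23 of 277 windows (8.30%), against 70 of 2893 (2.42%).

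**Figure D5:**
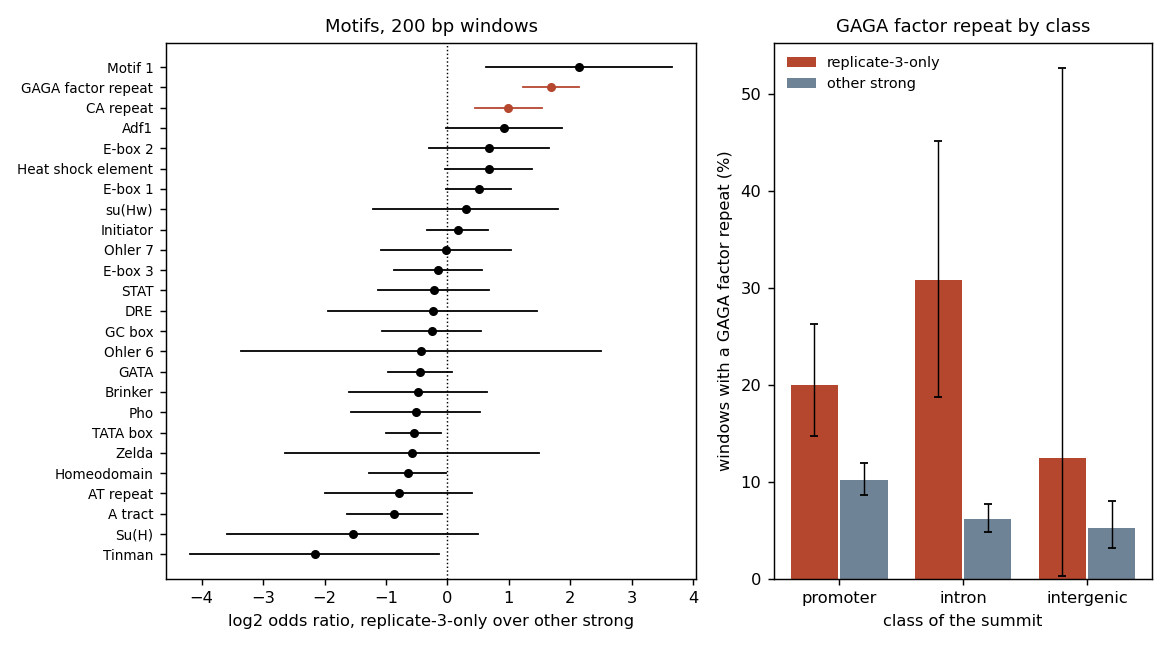
Left, log2 odds ratio of each motif in 200 bp windows (horizontal axis, replicate-3-only over other strong sites, points with 95% Wald intervals; motifs absent from the 277 windows are left out; E-box 1, 2 and 3 follow the order in the text; red marks motifs past the threshold). Right, share of windows with a GAGA factor repeat by class (vertical axis, percent, 95% exact intervals), replicate-3-only at left in each pair: 20.0% and 10.2% in promoters, 30.8% and 6.12% in introns, 12.5% and 5.19% in intergenic sites. The intergenic shares are 1 of 8 windows (exact interval 0.316 to 52.7%) and 19 of 366, so the first rests on a single window.

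The other 26 motifs did not pass the threshold. The first E-box with the letters CAGCTG was in 13.4% of windows, against 9.78%, and in 12.3% of TSS windows. The second E-box with the letters CACGTG was in 3.61% of windows, against 2.28%, and in 2.86% of TSS windows. The third E-box with the letters CATATG was in 6.5% of windows, against 7.19%, and in 4.28% of TSS windows. E-boxes are bound by bHLH factors. The Initiator with the letters TCAGTT was in 15.5% of windows, against 14.1%, and in 21.1% of TSS windows. GATA with the letters TGATAA was in 13% of windows, against 16.9%, and in 13.6% of TSS windows. Homeodomain with the letters TAATTA was in 8.66% of windows, against 12.9%, and in 9.56% of TSS windows. These are an element of core promoters, the sequence bound by GATA factors and the core of many homeodomain sites. The A tract with the letters AAAAAAAA was in 5.42% of windows, against 9.44%, and in 10.8% of TSS windows. The AT repeat with the letters ATATATAT was in 2.17% of windows, against 3.7%, and in 2.96% of TSS windows. STAT with the letters TTCNNNGAA was in 3.97% of windows, against 4.6%, and in 5.98% of TSS windows. Runs of A and T overlap with each other and with the TATA box. The heat shock element with the letters GAANNTTC was in 7.22% of windows, against 4.67%, and in 6.47% of TSS windows. The GC box with the letters GGGCGG was in 5.05% of windows, against 5.98%, and in 4.9% of TSS windows. Pho with the letters GCCATNTT was in 2.89% of windows, against 4.08%, and in 4.11% of TSS windows. Pho is a Polycomb group protein that binds DNA. Brinker with the letters GGCGCC was in 2.53% of windows, against 3.49%, and in 2.9% of TSS windows. Su(H) with the letters GTGGGAA was in 0.722% of windows, against 2.07%, and in 2.21% of TSS windows. Zelda with the letters CAGGTAG was in 0.722% of windows, against 1.07%, and in 1.01% of TSS windows. Brinker represses targets of Dpp, Su(H) is the DNA-binding factor of Notch signalling and Zelda opens chromatin in the early embryo.

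The DNA replication-related element (DRE, TATCGATA) was in 3 windows (1.08%), against 37 (1.28%), and in 5.42% of TSS windows. Adf1 was in 11 windows (3.97%), against 62 (2.14%), and Ohler 7 in 8 (2.89%), against 85 (2.94%). su(Hw) was in 4 windows (1.44%), against 34 (1.18%), and Ohler 6 in 1 (0.361%), against 14 (0.484%). Grainyhead (AACCGGTT) and CTCF matched 0 of the 277 windows, which allows a share of up to 1.08%. They matched 8 (0.277%) and 12 (0.415%) of the other strong sites. Motif 1 was in 5 windows (1.81%), against 12 (0.415%), with an adjusted p of 0.0899. The TATA box (TATAAA) was in 52 (18.8%), against 732 (25.3%), and Tinman (CACTTGA) in 2 (0.722%), against 91 (3.15%), each with an adjusted p of 0.0899. TSS windows hold these 3 at 2.71%, 26.1% and 3.44%. BEAF-32 matched no window of either set.

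Among all 8192 words of 7 bases, with reverse complements merged, 40 were more frequent and 27 less frequent in replicate-3-only windows (Fisher's exact test adjusted over all words). The most significant of the more frequent was CTCTCTC, the GAGA factor repeat itself. It was followed by CGCTCTC in 53 windows (19.1%), against 214 (7.40%; adjusted p = 9.62e-06, Fisher's exact test). Next came AGAGAGA in 50 windows, against 220, GGAGAGA in 29, against 91, ACTCTCT in 11.6% of windows, against 3.98%, and AGAGAGC in 48, against 227. CACTCTC was in 28, against 102, AGAGGGA in 24, against 78, CTCCCTC in 21, against 64, and ACGCTCT in 18, against 50. Several of these words overlap each other and the GAGA factor repeat, so they are not separate observations. The less frequent words with the smallest p were made mostly of A and T, led by AAATAAT in 14 windows (5.05%), against 468 (16.2%; adjusted p = 0.000162, Fisher's exact test), and ATTTTAA in 12 (4.33%), against 426 (14.7%). Compared within promoters, only 1 word in all passed, and within other sites 7 did, so most of the 67 calls did not pass within a class of site. The sets also differed in GC content, whose part in these counts was not tested.

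The 25 sites of highest signal included 20 promoters and 5 intron sites, and 10 of the 25 held a GAGA factor repeat. 14-3-3zeta, which encodes a phosphoprotein adaptor, had the highest signal, at 131, 109 bp from a TSS. CG43759 had a signal of 125 at rank 600, 31 bp from a TSS. These sites had pooled ranks of 2820 for 14-3-3zeta and 3163 for CG43759, and both were in the optimal list.

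Inx3 ranked 639 with a signal of 121, 47 bp from a TSS, and no pooled summit lay within 100 bp of it. Glut4EF (intron), rank 651 and signal 120, lay 516 bp from replicate 2. wdb, the gene for a regulatory subunit of protein phosphatase 2A, had a signal of 119, chic 114 at 4 bp from a TSS, and the lysosomal transporter gene Cln7 111. The next were crp, which encodes a bHLH factor, ctrip, the glycosylation gene Mgat2, Atpalpha, the homeobox gene dve and CG31522, with signals between 102 and 110.

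The remaining 11 of the 25 had signals between 89.9 and 101. They included the cytoskeletal genes Tm1 (tropomyosin) and shot (a spectraplakin), Ten-m, which encodes a teneurin of synapses and segments, and Mef2, the muscle transcription factor gene, where the site lay in an intron. Also among them were CG13334, fax, the RNA-binding protein gene Hrb27C, Mob2, CG2162, kermit and aru. The promoter windows of Ten-m and aru each held 5 overlapping or separate matches to the GAGA factor repeat, that of shot 3, and those of 14-3-3zeta, Cln7 and dve 2 each. Replicate 2 summits near these 25 sites lay between 516 and 2111 bp away.

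Of 13968 protein-coding genes, 212 (1.52%) had a replicate-3-only summit within 500 bp of a TSS, against 1276 (9.14%) with another strong summit there. Of the 212, 28 also had another strong site at a promoter, and 92 had one in the body or within 2000 bp of its ends. Counting the gene body and 2000 bp on both flanks, 441 genes (3.16%) had a replicate-3-only site, and 186 of these also had another strong site. Genes of that kind were long, with a median of 6142 bp, against 4528 bp for genes with another strong site and 2165 bp for all. The part of gene length in these counts was not tested.

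Genes were again counted with 2000 bp on both flanks. Those with the most sites of replicate 3 only, 3 each, were hts, pyd, mam and SppL. They encode adducin, a junction protein, the Notch coactivator and a signal peptide peptidase. The 3 sites at hts had signals of 80.3, 71.2 and 66.5, and those at pyd 78.2, 65.1 and 59.7. The 3 at mam had signals of 76.7, 69.3 and 62.4, beside 18 other strong sites in the same span. The strongest of these 3 lay outside mam, 1 bp from a TSS of RN-tre. At SppL, the sites with signals of 69.6 and 60.4 lay outside the gene, the first of them 117 bp from a TSS of Tsp96F. None of hng1, hng2 and hng3 had a site within 2000 bp, and the nearest to hng2 lay 56012 bp away.

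Across 30 gene lists, promoters with a replicate-3-only site were few. Counts are set beside the 1.52% of all protein-coding genes with such a site and the 9.14% with another strong promoter site. Of 93 genes listed as cytoplasmic ribosomal proteins, 1 had such a site (RpL7-like, 63.5 at rank 2592), against 56 with another strong promoter site. RpL7-like is in the list by its symbol, which names a gene similar to RpL7 and not RpL7 itself. The nearest TSS to that site, at 27 bp, was that of JhI-21, so the site cannot be assigned to RpL7-like alone. Of 40 regulators of appendages and the wing hinge, 4 did (10.0%), against 11. These were tio, which encodes a teashirt-related zinc finger protein, with a signal of 75.9, the leg patterning gene bab2 with 71.2, btd with 61.5 and zfh2, a zinc finger homeodomain gene, with 58.5. The zfh2 site is the last one inside the rank limit.

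Of 36 genes of EGFR, FGF and Ras signalling, 3 (8.33%) had one, against 10. They were the receptor gene Egfr with a signal of 75.8, the ETS factor gene pnt with 65.5 and the adaptor gene drk with 58.6. Of 47 genes of the cell cycle and replication, 3 had one (Cdk4 75.8, trbl 72.5 and Dp 60.6), against 10. Of 29 NK homeobox and mesoderm regulators, 2 had one (sns 79.0 and sna 62.2), against 7, and of 36 Polycomb and Trithorax group genes 2 (jing 69.3 and Jarid2 63.9), against 10. With 1 to 4 genes in a list, these shares move by several points with a single gene.

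A single member had such a promoter site in each of the lists for translation factors (eRF3), chemosensory receptors (Ir60b), heat shock and chaperones (Hsp68), segmentation (btd), dorsoventral patterning and early zygotic genes (sna in both), the Dpp pathway (Dad), the Wnt pathway (Wnt5), the Hedgehog pathway (boi), the insulin pathway (S6k), neuronal markers (nrv2) and epithelial barrier genes (shg). There was 0 among 27 Notch pathway genes, against 11 with another strong promoter site, 0 among 25 ecdysone response genes, against 10, and 0 among 8 Hox genes, against 1. With a share of 1.52% over all protein-coding genes, a count of 0 in lists this short does not show a shortage. The lists of histones, cuticle proteins, Hippo and JAK/STAT pathways, insulators, MADF and BESS genes, muscle, gut and fat body, and hemocyte and trachea also had 0.

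The mirrored rule, applied to replicate 2 after the data were seen, gave 144 strong sites with no replicate 3 summit within 500 bp. Against these, the 277 replicate-3-only sites were more often at promoters (72.2% against 44.4%, log2 odds ratio 1.70, adjusted p = 3.10e-07 by Fisher's exact test). They were also more often with a GAGA factor repeat (21.7% against 4.86%, adjusted p = 3.26e-05) and with a CA repeat (13% against 3.47%, adjusted p = 0.0085, Fisher's exact tests). Median GC content was 46.5%, against 34.0% in the replicate-2-only sites. The TATA box was in fewer replicate-3-only windows (18.8% against 43.1%, adjusted p = 7.06e-06), as were Homeodomain (8.66% against 22.2%, adjusted p = 0.00155), the A tract (5.42% against 18.1%, adjusted p = 0.000805) and Tinman (0.722% against 4.86%, adjusted p = 0.0422; Fisher's exact tests). The X chromosome held 11.6% of the replicate-3-only sites, against 22.2% (adjusted p = 0.0370), and 2R did not differ past the threshold (26.7% against 17.4%, adjusted p = 0.117; Fisher's exact tests). The sites of 1 library in each replicate were set against each other, so differences between the libraries cannot be told apart from differences between the sites.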

How the data were processed

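Peak lists of 2 ChIP-seq samples (biological replicates 3 and 2) were used. Relaxed lists per replicate and pooled, and an optimal list made with the irreproducible discovery rate, were deposited by the authors on builds dm6 and dm3, each called against a control alignment per the file headers and records deposited with them. The signal column, deposited by the authors, is the caller's value per peak and is not scaled between lists. The −log10 q-value column and the summit offset in bp are also as deposited by the authors. The labels and headers used here name no caller, aligner or version (not given in the sources used here). No read counts are listed, so depth is unknown, and intervals cover counting error over sites only.

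Members and lists were chosen with earlier results of these data known. Sites were annotated on Release 6 with Ensembl release 115, without 5889 annotated transposable elements as TSSs, and sequences came from the RefSeq Release 6 assembly. A summit went to the first of 7 classes it met: promoter, then 5' UTR, then coding exon, then 3' UTR, then other exon, then intron, then intergenic. Shares carry 95% Clopper-Pearson intervals; a count of 0 is limited by 3 counts. The sets of sites were compared with Fisher's exact test (2-sided), p-values were adjusted after Benjamini and Hochberg per family, and the threshold was 0.05 (scipy 1.17.1, pandas 2.3.3, Python 3.11.15). Gene lists (1219 of 1221 entries found) were counted without a test. Named sites were the 25 strongest, up to 4 per gene list by signal, 3 on either side of each limit, the 5 genes with the most sites, hng1 to hng3 and 10 words per direction; each took the gene of the nearest protein-coding TSS or, with none within 2000 bp, the gene it lay in. PDZ-GEF, CG10286, bsk, Tdg and the sites in the optimal list were named after their values were seen. The motif and distance routines were tested on simulated data. Alternatives changed the distance, the number of rows, the window, the TSS set and the sites compared. Results at 1 gene are not reported here.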

Additional observations from a re-analysis of the deposited data

How the results depend on the processing

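The number of sites was 809, 422, 162 and 77 with limits of 100, 250, 1000 and 2000 bp to replicate 2, 523 for summits outside replicate 2 intervals, 1310 when only equally many of the strongest replicate 2 rows counted, 18, 95 and 674 among the 1000, 2000 and 5000 strongest rows, and 469 on dm3, where the replicate 2 list has 16963 rows. Under the longer reading, in which the strongest of all rows without a replicate 2 summit are taken, the number is set by the choice and gives no value. The promoter log2 odds ratio ran from 0.59 to 2.56 in 14 of 15 alternatives, which passed by Fisher's exact test without adjustment. Under the longer reading it was -0.12. Among the 1000 strongest rows its unadjusted p was 0.015 (Fisher's exact test), and the promoter class did not pass there after adjustment over the 7 classes. The GAGA factor repeat passed in 14 of 16, and its log2 odds ratio was -0.090 under the longer reading. The CA repeat passed in only 9 of 16. The 2R log2 odds ratio was -0.22 among the 1000 strongest rows. Classes that passed numbered 0 among the 1000 and 5 among the 5000 strongest rows. Arms that passed numbered 0 at 100, 1000 and 2000 bp and among the 1000 strongest rows, 2 at 250 bp, among the 2000 and 5000 strongest rows, the strongest replicate 2 rows and the ranks after 1585, and 3 for intervals and the longer reading. Motifs that passed numbered 6 at 100 and 250 bp, 1 at 1000 and 2000 bp, 7 for intervals, 0, 1 and 8 among the 1000, 2000 and 5000 strongest rows, 5 under the longer reading, 10 for the strongest replicate 2 rows, 4 in 400 bp windows and 1 in promoters. Genes with a promoter site numbered 523, 129 and 66 at 100, 1000 and 2000 bp, 355 for intervals, 15, 82 and 447 among the 1000, 2000 and 5000 strongest rows, 1287 under the longer reading and 696 for the strongest replicate 2 rows. The 67 words became 7 in the ranks after 1585, 1 in promoters and 7 elsewhere, alternatives added after the data were seen. Membership alternatives for classes, arms, motifs and genes were also added then. The causes of these changes were not tested. Stricter choices also held fewer sites, and the part of that in these changes was not tested. No paired analysis was possible because there is 1 group, and leaving out a replicate was not possible because the choice of sites needs both. With the depth unknown, absence from the replicate 2 list does not show absence of binding there.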
